A study of Mus musculus with 12 samples.

Results

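The data set compared bone marrow plasmacytoid dendritic cells (BM pDCs) sorted from HDAC3-KO mice with BM pDCs sorted from control mice. It holds 4 of the 12 RNA-seq libraries of a mouse series on HDAC3 in dendritic cell development, 2 from HDAC3-KO and 2 from control, and these were chosen by their cell type label. HDAC3-KO mice were Hdac3fl/fl CreERT2, and controls were Hdac3fl/fl without CreERT2, both on the C57BL/6 background. Both genotypes received tamoxifen by intraperitoneal injection for 5 days and were analysed 7 days after the last dose. Deletion removed a single loxP-flanked exon of Hdac3. CreERT2 was expressed from the Rosa26 locus, so that deletion was systemic and not limited to pDCs. The paper reports that such systemic deletion led to the death of the mice within days. Effects of illness in the animals and of HDAC3 loss in pDCs therefore cannot be told apart. Tamoxifen activation of CreERT2 took place only in the HDAC3-KO mice, so that loss of HDAC3 and Cre activity cannot be told apart. Per the study's methods, pDCs were gated on CD45, CD11c at an intermediate level, PDCA-1, B220 and Siglec H and against CD11b. The genes of these gate proteins are therefore named below as gate genes. No source states whether the 2 libraries of a group came from separate mice, and p-values measure only the spread between these libraries, which may be technical. In bulk RNA, fewer cells with a transcript and less transcript per cell cannot be told apart.

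pDCs are dendritic cells of the bone marrow that release large amounts of type I interferon when TLR7 or TLR9 senses viral nucleic acid in their endosomes. They depend on the E protein TCF4, which is opposed by the ID protein ID2, and conventional dendritic cells (cDCs) use ID2, BATF3 and ZBTB46 instead. HDAC3 removes acetyl groups from histones as the catalytic subunit of the NCoR and SMRT corepressor complexes, which are recruited by nuclear receptors, by BCL6 and by other repressors.

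The libraries held 18117748 to 18462220 expected counts each. The deposited levels are FPKM, length- and depth-scaled fragment counts, and the tests used edgeR's quasi-likelihood method on the counts with Benjamini-Hochberg adjustment over 12716 genes. A gene was called changed at an adjusted p under 0.05. On log2 levels the HDAC3-KO libraries correlated with each other at 0.980 and the control libraries at 0.992 across genes, against 0.930 to 0.952 between groups. The marker lists held the label. The summed level of 28 pDC genes was 8593 and 8121 FPKM in HDAC3-KO libraries and 14646 and 15147 FPKM in control libraries, above that of every other cell type list in all 4 libraries. The summed level of 11 erythroid genes was 677 and 197 FPKM in HDAC3-KO libraries, against 268.9 and 391.7 FPKM in control libraries, so that HDAC3-KO library 1 was the highest and HDAC3-KO library 2 the lowest, and the median log2 change of this list was 0.68 with both and -0.44 without HDAC3-KO library 1.

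**Figure D1:**
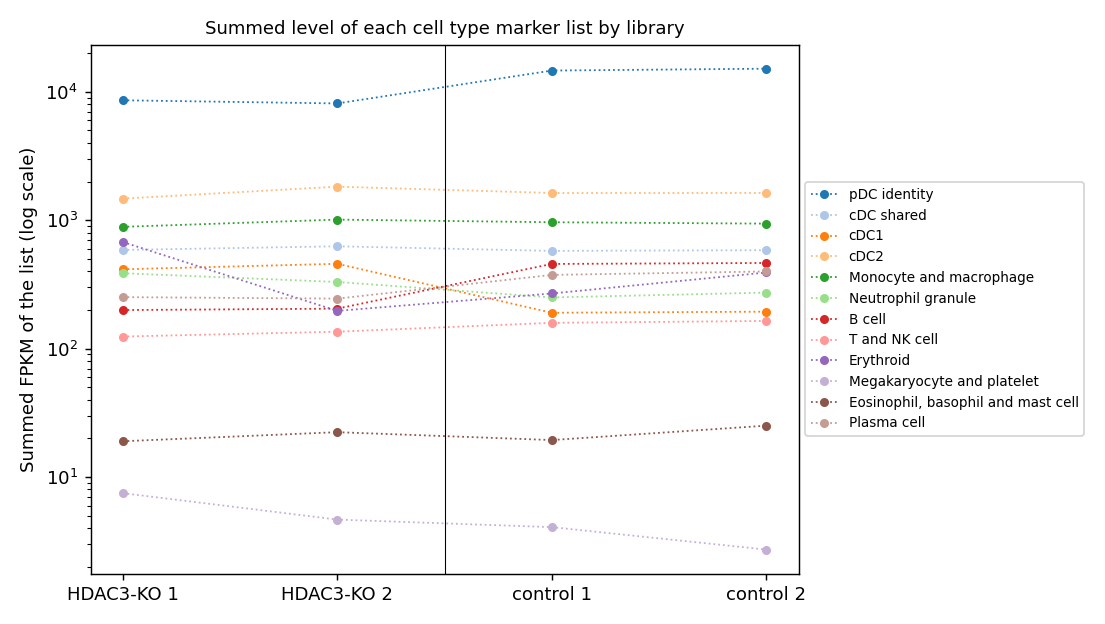
Summed FPKM (log scale) of the members of 12 cell type marker lists in each of the 4 libraries, HDAC3-KO left of control; each dotted line joins 1 list's values. The pDC list was the highest in all 4 libraries, and the erythroid list was highest in HDAC3-KO library 1, at 677 FPKM.

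Hdac3 stood at 15.6 and 15.8 FPKM in HDAC3-KO libraries, against 38.9 and 37.8 FPKM in control libraries. Its log2 change was -1.15 ± 0.09 (SE; adjusted p = 0.00011). Only 1 exon was deleted, and the source of the remaining counts, transcript without that exon or cells that kept it, was not tested. Both HDAC3-KO libraries were below both control libraries in FPKM, which held for 48.9% of all tested genes, while 27.2% had both above. The direction at Hdac3 was that of the labels. Among the other class I deacetylases, Hdac2 fell by 0.36 on the log2 scale (20.4 and 17.3 FPKM in HDAC3-KO, 25.0 and 28.1 FPKM in control; adjusted p = 0.026), and Hdac1 and Hdac8 were not called. Of 10 genes of the HDAC3 corepressor complex and its recruiting repressors, Hdac3 itself fell and 6 rose. Bcl6, the repressor that recruits SMRT, was at 16.1 and 20.8 FPKM in HDAC3-KO and 5.18 and 4.29 FPKM in control libraries (log2 change 2.11 ± 0.17). The complex subunits Tbl1x and Tbl1xr1 rose by 0.85 and 0.65 on the log2 scale.

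Across the 12716 genes tested, 2753 rose and 2858 fell, which is 44.1% of genes called, 21.6% as rises and 22.5% as falls. The median log2 change over all tested genes was -0.0095. The rises were the larger changes: 1127 genes rose and 709 fell by at least 2-fold (8.86% and 5.58% of genes tested), 327 rose and 197 fell by at least 4-fold, and 117 rose and 66 fell by at least 8-fold. The genes that rose by at least 2-fold had a median level of 5.95 FPKM in HDAC3-KO and 1.84 FPKM in control libraries, and 458 of them lay under 1 FPKM in control pDCs. The genes that fell by at least 2-fold had a median of 1.23 FPKM in HDAC3-KO and 4.07 FPKM in control libraries. At the top of the abundance range, among 726 genes with a mean of at least 100 FPKM, 33.3% rose and 20.3% fell. Without the scaling for composition, using library size only, 2080 genes rose and 3847 fell, so that rises made up 35.1% of calls instead of 49.1%, and the median of all genes lay at -0.14. Without control library 1, 1531 genes rose and 1395 fell, and without control library 2, 1440 rose and 1310 fell.

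Several of the 10 largest rises among genes with a mean of at least 5 FPKM were receptors or other cell surface genes, and all 10 were under 8 FPKM in control pDCs. Ccr1, a receptor for inflammatory chemokines such as CCL3 and CCL5, was at 16.8 and 28.1 FPKM in HDAC3-KO libraries and 0.23 and 0.31 FPKM in control libraries (log2 change 6.51 ± 0.38, adjusted p = 4.9e-05). Ffar2, a receptor for short-chain fatty acids, was at 9.89 and 11.5 FPKM in HDAC3-KO and 0.10 and 0.20 FPKM in control libraries (6.42 ± 0.28, adjusted p = 3.3e-05). Cd22, an inhibitory sialic acid-binding lectin, was at 180.2 and 188.9 FPKM in HDAC3-KO and 7.63 and 6.58 FPKM in control libraries (4.82 ± 0.12, adjusted p = 1.3e-05). Groups without overlap were required of all 10 genes, so the gap between the groups in these 3 follows from the choice. The other 7 were Gcnt2, which encodes a glycan-branching transferase, Tmem51, Ifitm6, Klrb1f, Acvrl1, Itgam and Neurl3, with log2 changes of 3.97 to 4.83.

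Itgam, which encodes the CD11b chain excluded by the gate, was at 43.8 and 55.0 FPKM in HDAC3-KO and 4.08 and 2.80 FPKM in control libraries (log2 change 3.98 ± 0.21, adjusted p = 3.7e-05). As a gate gene it was selected against at the protein level in both groups. Its transcript still differed between them, as the rule that chose the largest rises required.

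Some of the largest falls ended under 1 FPKM in both HDAC3-KO libraries. Others did not, such as Serpinh1 (2.54 and 1.24 FPKM) and Nrxn2 (2.24 and 1.10 FPKM). Gpr25, an orphan receptor, was at 0.59 and 0.61 FPKM in HDAC3-KO and 16.9 and 15.2 FPKM in control libraries (log2 change -4.61 ± 0.16, adjusted p = 2.3e-05). Egfr, the epidermal growth factor receptor, was at 0.88 and 0.18 FPKM in HDAC3-KO and 11.1 and 11.3 FPKM in control libraries (-4.28 ± 0.41). These transcripts were at moderate levels in control pDCs and under 1 FPKM without HDAC3. Other falls among the 10 largest were Serpinh1, a collagen chaperone, Nrxn2, a neurexin, Pdgfa, a growth factor, Mgl2, a galactose-binding lectin, Matn2, Cmklr1, the chemerin receptor, and Kank2, with log2 changes of -3.76 to -3.03.

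**Figure D2:**
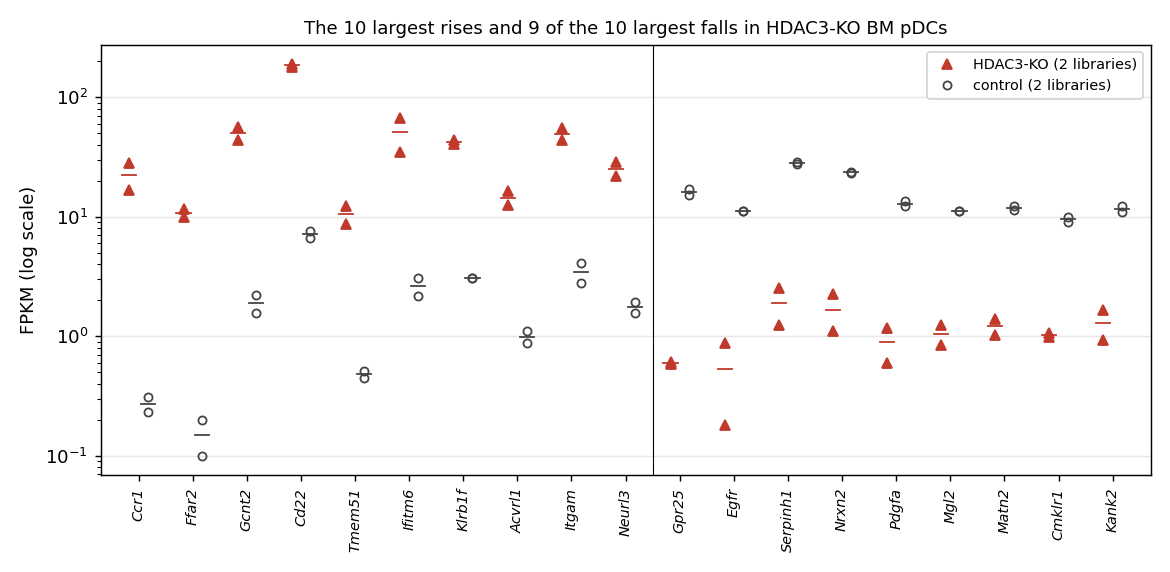
FPKM (log scale) in each library for the 10 largest rises (left of the line) and 9 of the 10 largest falls (right) among called genes with a mean of at least 5 FPKM and groups that do not overlap; red triangles are the 2 HDAC3-KO libraries, grey circles the 2 control libraries, and short lines the group means. Ccr1 and Ffar2 were under 1 FPKM in both control libraries, and Gpr25 and Egfr were under 1 FPKM in both HDAC3-KO libraries.

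Few genes passed from 0 to detection. Of the rises, 2 had 0 counts in both control libraries. Fhad1, with 76 counts over the HDAC3-KO libraries, was at least 27.5-fold higher, and Wfdc18, with 32 counts, at least 11.6-fold higher, both against a floor of 3 counts over the 2 control libraries. Of the falls, 5 had 0 counts in both HDAC3-KO libraries. Tmem35a, with 43 counts over the control libraries, was at least 13.2-fold lower by the same floor, and Gdf1, with 39.6 counts, at least 12.1-fold lower. Gm4724, Mup14 and Mup16 belong to families of near-identical genes among which the counting could split reads, and are uncertain.

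By gain of mean FPKM, the leading named genes were Psap, the precursor of the saposins that activate lysosomal lipid hydrolases (5255 and 6041 FPKM in HDAC3-KO, 3920 and 3710 FPKM in control libraries), Plac8 (2621 and 3006 FPKM in HDAC3-KO, 1514 and 1563 FPKM in control libraries) and Laptm5 (1949 and 2166 FPKM in HDAC3-KO, 1041 and 924 FPKM in control libraries). Cd52, a small glycoprotein of the leukocyte surface, was at 1032 and 1248 FPKM in HDAC3-KO and 379 and 388 FPKM in control libraries. Gm46894, Gm40525 and Cnbd2 also gained among the 10 largest, and their counts are uncertain, since predicted or overlapping genes may share reads with others. By loss of mean FPKM the leading genes were pDC surface genes. Ly6d was at 308 and 277 FPKM in HDAC3-KO and 1513 and 1721 FPKM in control libraries (log2 change -2.33 ± 0.11), and Tyrobp, the ITAM adaptor DAP12, at 1272 and 1196 FPKM in HDAC3-KO and 2300 and 2323 FPKM in control libraries (-0.77 ± 0.09). Cox6a2, a tissue-restricted subunit of cytochrome oxidase, was at 140 and 103 FPKM in HDAC3-KO and 803 and 822 FPKM in control libraries (-2.61 ± 0.14). Siglech and Bst2, both gate genes, and Ly6c2 were also among the 10.

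Gene lists were read beside all tested genes, of which 21.6% rose and 22.5% fell. A list's counts describe its members and were not tested as a set. Among 48 lists other than cell type markers, those with the highest medians were mitosis, DNA damage response and DNA replication, and those with the lowest were PYHIN and guanylate binding genes, interferon-stimulated genes and lymphoid recombination genes.

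**Figure D3:**
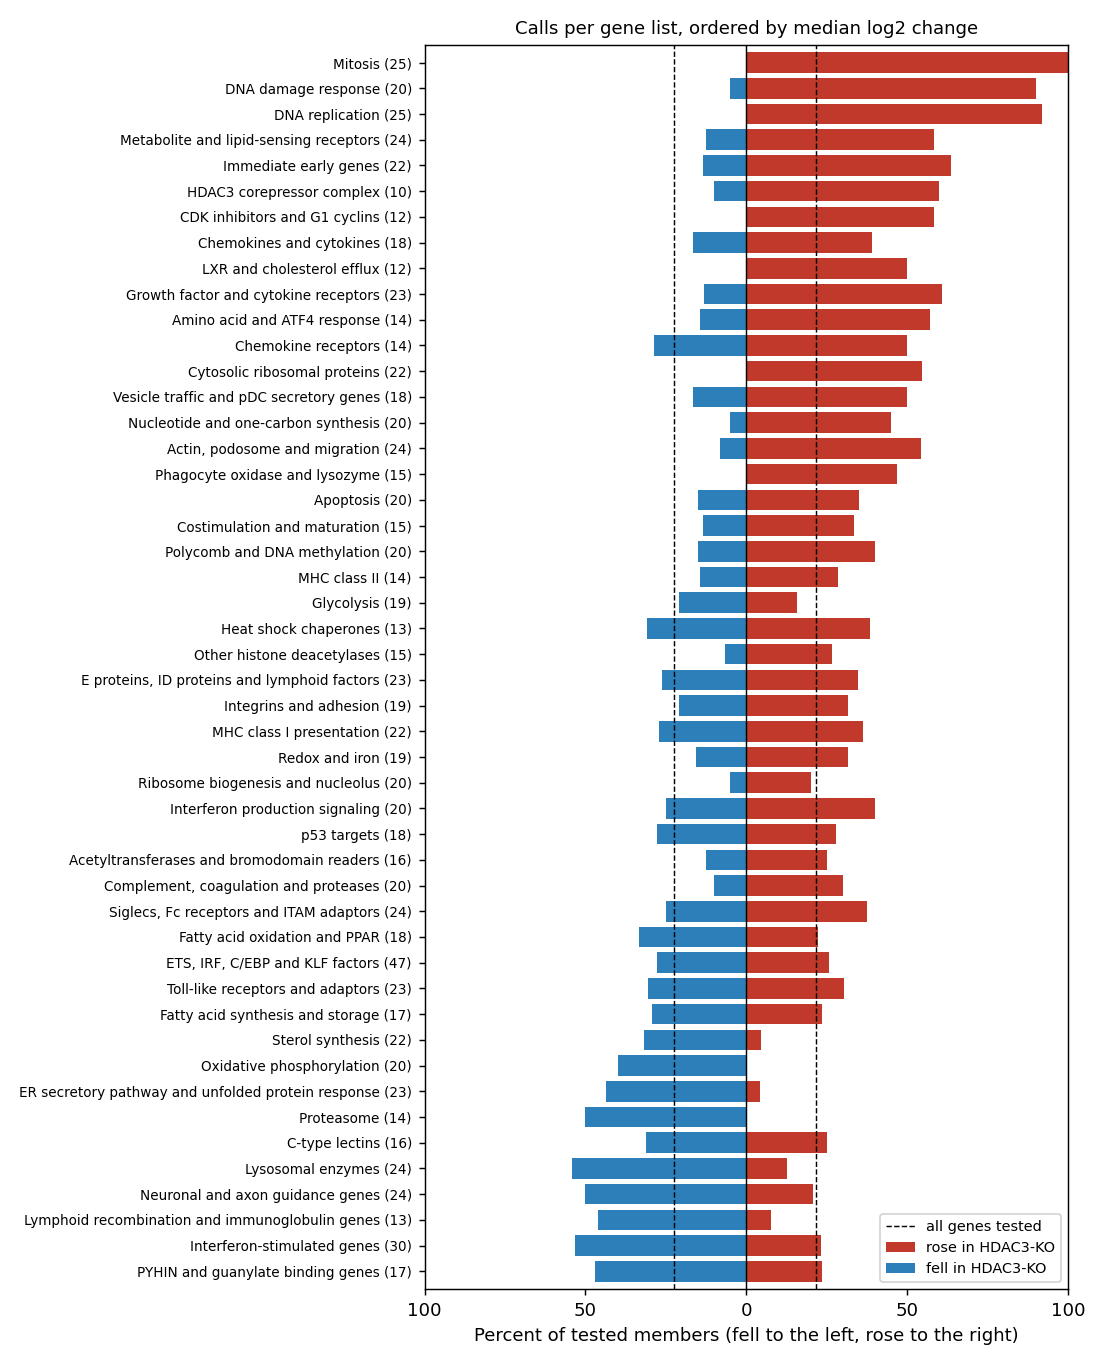
Percent of tested members of 48 gene lists that rose (red, to the right) or fell (blue, to the left) in HDAC3-KO BM pDCs, ordered by median log2 change with the number tested in parentheses; dashed lines mark the shares over all genes tested, 21.6% for rises and 22.5% for falls. Mitosis stood at 100% rises, and interferon-stimulated, lysosomal and proteasome genes reached past the dashed line for falls.

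Receptors for metabolites and lipids rose widely. Of 24 tested, 14 rose and 3 fell, with a median log2 change of 0.89. Both free fatty acid receptors that were tested besides Ffar4 rose: Ffar1, a receptor for long-chain fatty acids, was at 6.25 and 5.40 FPKM in HDAC3-KO and 0.06 FPKM in both control libraries (log2 change 6.51 ± 0.42), beside Ffar2 above. Gpr55, a lysophospholipid receptor, was at 6.21 and 5.02 FPKM in HDAC3-KO and 1.03 and 0.86 FPKM in control libraries (2.71 ± 0.18). Ptafr, the receptor for platelet-activating factor, was at 12.8 and 11.9 FPKM in HDAC3-KO and 6.52 and 6.31 FPKM in control libraries (1.08 ± 0.09). In each of these genes both HDAC3-KO libraries lay above both controls, as in 27.2% of all tested genes. The 3 falls of this list were P2ry6, P2ry13 and P2ry14, receptors for nucleotides or nucleotide sugars, with log2 changes of -1.48, -1.61 and -0.85. Over all P2ry genes in the table, 4 of 7 fell and none rose, the fourth being P2ry12.

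The chemokine receptors were rearranged in both directions. Of 14 tested, 7 rose and 4 fell, with 4 rises without control library 2. Ccr7, which guides dendritic cells to lymph nodes, was at 16.3 and 18.3 FPKM in HDAC3-KO and 2.01 and 1.54 FPKM in control libraries (log2 change 3.43 ± 0.16, adjusted p = 3.3e-05). Ccr2, which draws monocytes and dendritic cell precursors out of the marrow, was at 97.7 and 114.5 FPKM in HDAC3-KO and 37.8 and 34.5 FPKM in control libraries (1.69 ± 0.12). Cmklr1, which pDCs use to follow chemerin, went the other way, with 0.99 and 1.06 FPKM in HDAC3-KO and 9.89 and 9.05 FPKM in control libraries (-3.04 ± 0.14). Cxcr3 fell by 0.78 on the log2 scale. Ccr9, at 200 and 198 FPKM in HDAC3-KO and 209 and 243 FPKM in control libraries, was not called.

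**Figure D4:**
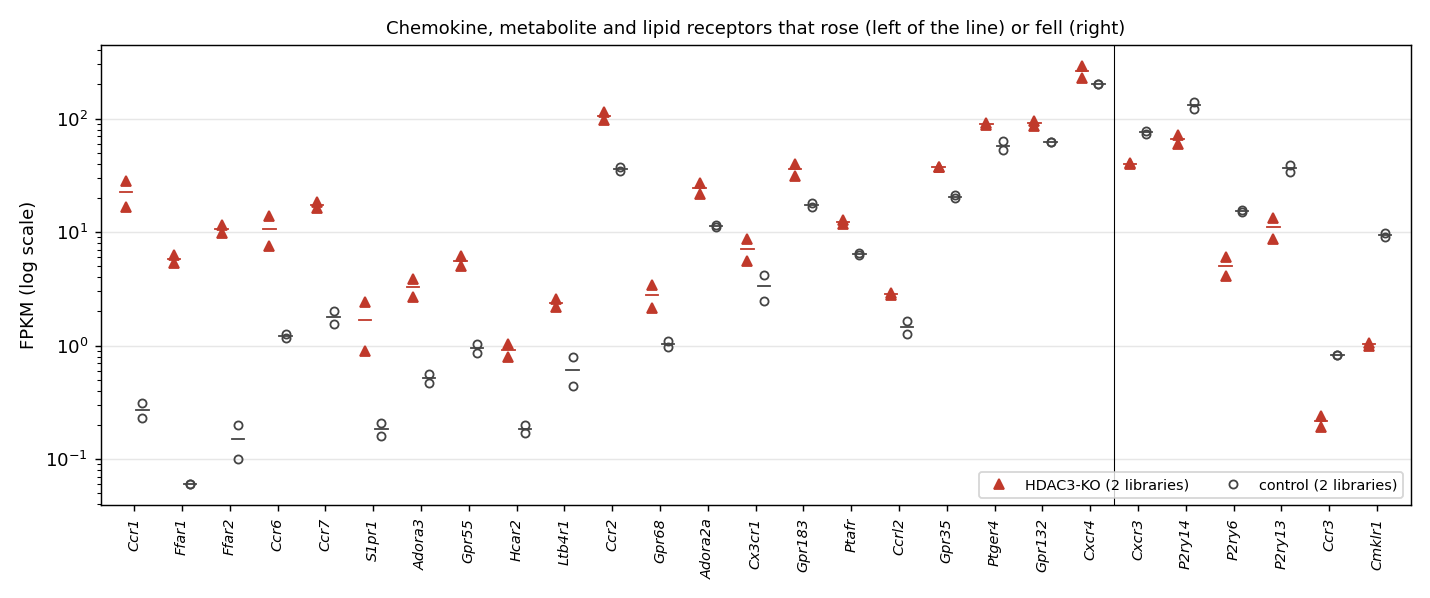
FPKM (log scale) in each library for 27 chemokine, metabolite and lipid receptors that were called, ordered by log2 change, with 21 rises left of the line; red triangles are HDAC3-KO libraries, grey circles control libraries and short lines group means. The rises at the left start below 1 FPKM in control libraries, and Cmklr1, at the far right, was near 1 FPKM in both HDAC3-KO libraries and above 9 FPKM in both controls.

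Genes for secreted chemokines and cytokines and for cytokine receptors changed with them. Of 18 chemokine and cytokine genes tested, 7 rose and 3 fell. Ccl3 was at 148 and 248 FPKM in HDAC3-KO and 33.6 and 37.5 FPKM in control libraries (log2 change 2.62 ± 0.25), and Ccl4 at 438 and 536 FPKM in HDAC3-KO and 178 and 201 FPKM in control libraries (1.5 ± 0.14). Both encode ligands that attract monocytes and T cells, and CCL3 is a ligand of CCR1. Tnf was at 19.7 and 22.4 FPKM in HDAC3-KO and 6.95 and 9.23 FPKM in control libraries (1.52 ± 0.16). Il1b rose at a low level, with 2.04 and 2.72 FPKM in HDAC3-KO and 0.42 and 0.17 FPKM in control libraries (log2 change 2.996 ± 0.434). Of 23 growth factor and cytokine receptors tested, 14 rose and 3 fell, with a median of 0.54 (9 rises without control library 2). Kit, the stem cell factor receptor, was at 8.52 and 9.77 FPKM in HDAC3-KO and 1.77 and 1.54 FPKM in control libraries (2.60 ± 0.14), Il10ra at 152 and 167 FPKM in HDAC3-KO and 48.7 and 49.0 FPKM in control libraries, and Il4ra at 72.7 and 75.9 FPKM in HDAC3-KO and 33.4 and 33.5 FPKM in control libraries. Il7r, the lymphoid receptor for interleukin-7, fell to 19.1 and 11.2 FPKM in HDAC3-KO libraries, against 82.3 and 84.1 FPKM in control libraries (-2.33 ± 0.21).

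Among lectins of the Siglec family and the Fc receptors, members changed in both directions. The list that holds them had a median log2 change of -0.05, whose sign changed under 3 alternatives. Its share of falls, 25%, was near the 22.5% of all tested genes. Of 24 tested in this list with the ITAM adaptors, 9 rose and 6 fell (3 falls without control library 1 or 2). Cd33, a Siglec of myeloid cells, was at 65.7 and 85.3 FPKM in HDAC3-KO and 7.41 and 7.57 FPKM in control libraries (log2 change 3.47 ± 0.16), and Siglecf at 7.82 and 10.3 FPKM in HDAC3-KO and 0.29 and 0.34 FPKM in control libraries (5.02 ± 0.25). With Cd22 and Siglece, 4 of 8 Siglec genes tested rose, and Siglech and Siglecg fell. Siglech, a gate gene, was at 945 and 855 FPKM in HDAC3-KO and 1902 and 1951 FPKM in control libraries. Fcgr2b, the inhibitory IgG receptor, was at 9.46 and 9.54 FPKM in HDAC3-KO and 34.0 and 32.2 FPKM in control libraries (-1.69 ± 0.10). Of 16 C-type lectins tested 4 rose (2 without control library 1 or 2) and 5 fell. Clec9a, the cDC1 receptor for actin of dead cells, was at 208 and 196 FPKM in HDAC3-KO and 46.3 and 51.2 FPKM in control libraries (2.18 ± 0.10), and Clec10a at 52.2 and 47.7 FPKM in HDAC3-KO and 217.8 and 226.5 FPKM in control libraries (-2.02 ± 0.09).

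Markers of other cells stood as follows beside these surface genes. Cd22 and Fcgr2b are also B cell genes and Siglecf an eosinophil gene. Of 11 B cell markers tested 1 rose and 5 fell (8 falls without HDAC3-KO library 2 and 2 without control library 2), with sums of 200 and 205 FPKM in HDAC3-KO and 457 and 465 FPKM in control libraries, and the defining markers Ms4a1 and Pax5 were under 1 FPKM in all libraries. Of 11 eosinophil, basophil and mast cell markers 2 rose and 5 fell (1 and 2 without control library 1 or 2), with sums of 19.0 and 22.4 FPKM in HDAC3-KO and 19.4 and 25.1 FPKM in control libraries, and Epx and Prg2 fell. Of 17 monocyte and macrophage markers 4 rose and 5 fell (2 to 7 rises and 0 to 5 falls with 1 library left out, the lowest counts of both without control library 2 and the most rises without HDAC3-KO library 1), with sums of 888 and 1011 FPKM in HDAC3-KO and 964 and 941 FPKM in control libraries. Csf1r, Ccr2, Cx3cr1 and Treml4 were the rises, and Cd14 fell to 0.79 and 0.62 FPKM in HDAC3-KO libraries, against 1.91 and 1.90 FPKM in control libraries. Of 16 neutrophil granule markers 6 rose and none fell, with sums of 386.5 and 330.5 FPKM in HDAC3-KO and 250.3 and 273.1 FPKM in control libraries. The rises were Fcnb, Lcn2, Ctsg, Ms4a3, Prtn3 and Csf3r, and the defining markers Elane, Mpo, S100a8 and Camp were not called. This list had 10 rises without HDAC3-KO library 1, and without HDAC3-KO library 2 it had 4 falls. The part of RNA from other cells in the rises of myeloid genes was not tested.

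The interferon system split within the list. Of 30 interferon-stimulated genes tested, 7 rose and 16 fell, with a median log2 change of -0.55. Summed over the list, the level was 2126 and 2026 FPKM in HDAC3-KO and 3110 and 3189 FPKM in control libraries, and most of this was Bst2, a gate gene, at 1234 and 1164 FPKM in HDAC3-KO and 2110 and 2132 FPKM in control libraries. Ifi44 was at 9.47 and 6.69 FPKM in HDAC3-KO and 25.7 and 29.6 FPKM in control libraries (-1.65 ± 0.15, adjusted p = 0.00024). Irf7, the master regulator of interferon alpha transcription in pDCs, was at 205 and 159 FPKM in HDAC3-KO and 275 FPKM in both control libraries (-0.46). Isg15, Usp18, Ifit1, Ifit3, Oas1a and Oasl2 also fell, by 1.20 to 2.08 on the log2 scale. Against these, Ifitm1, which encodes a membrane protein that restricts virus entry, was at 16.4 and 23.8 FPKM in HDAC3-KO and 2.35 and 2.37 FPKM in control libraries (3.33 ± 0.26), and Ifitm2 at 59.4 and 89.9 FPKM in HDAC3-KO and 16.5 and 15.8 FPKM in control libraries (2.34 ± 0.22). Oas3, a sensor of double-stranded RNA that makes oligoadenylate, was at 7.64 and 7.36 FPKM in HDAC3-KO and 2.47 and 2.68 FPKM in control libraries (1.68 ± 0.10).

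Families within these lists were grouped by symbol after the member values had been seen. All 9 guanylate binding protein (Gbp) genes tested, large GTPases that attack pathogen vacuoles, fell, with a median of -1.12 and sums of 50.5 and 44.5 FPKM in HDAC3-KO and 114 and 124 FPKM in control libraries. Gbp6 was the most reduced of the named members, with 4.24 and 2.59 FPKM in HDAC3-KO and 18.4 and 23.2 FPKM in control libraries (-2.45 ± 0.21). Of 5 Ifitm genes tested, 4 rose and none fell, with sums of 186 and 283 FPKM in HDAC3-KO and 72.0 and 73.3 FPKM in control libraries. Of 7 Oas genes 2 rose and 3 fell, and of 5 Ifit genes none rose and 3 fell (1 in the lowest of the alternatives). These families arose by duplication, and the counting could split reads between members. Among 17 PYHIN and guanylate binding genes, the 4 rises were the PYHIN genes Ifi205, Ifi211, Ifi203 and Mndal, with 1 rise without control library 1. The PYHIN gene Ifi213 fell, and Ifi204, Ifi207, Ifi208, Ifi209 and Aim2 were not called. Of 20 genes that act upstream, in sensing and in inducing interferon, 8 rose and 5 fell (4 and 3 without control library 1 or 2). Cgas, the sensor of cytosolic DNA, was at 7.73 and 7.21 FPKM in HDAC3-KO and 3.25 and 2.99 FPKM in control libraries (1.43 ± 0.12), and Ifih1, the RNA sensor MDA5, at 2.47 and 1.41 FPKM in HDAC3-KO and 5.18 and 5.73 FPKM in control libraries (-1.51 ± 0.19).

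**Figure D5:**
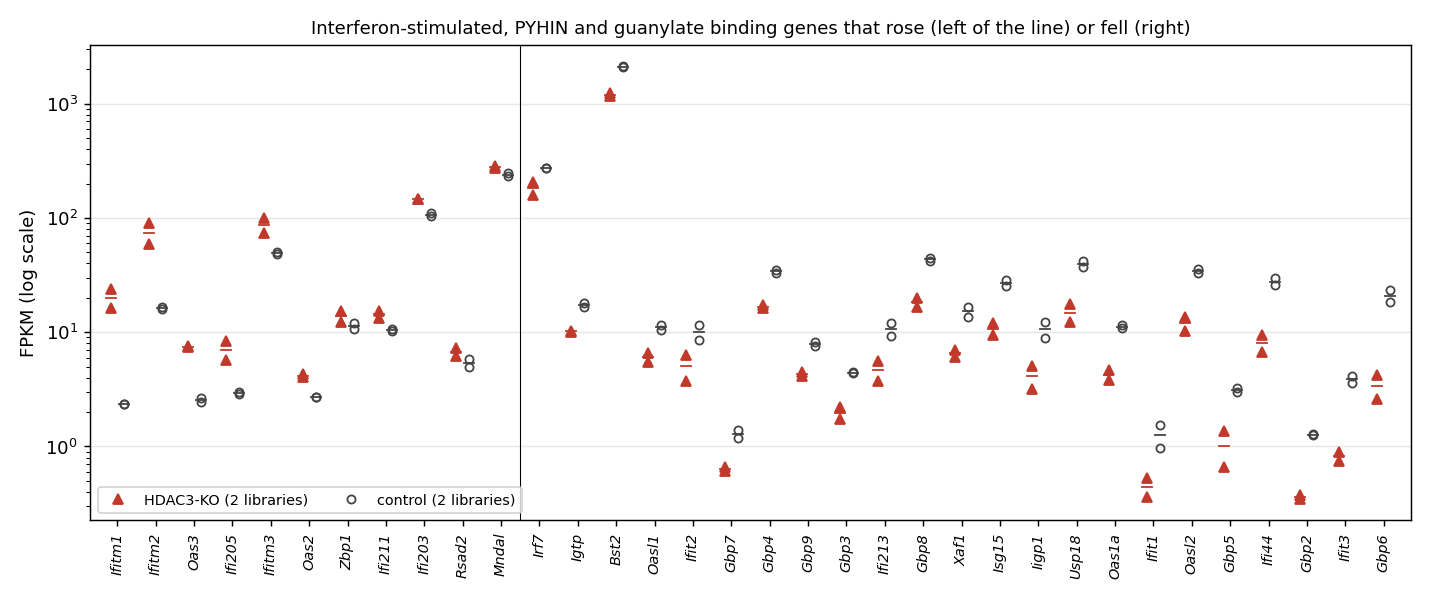
FPKM (log scale) in each library for the 34 called interferon-stimulated, PYHIN and guanylate binding genes, ordered by log2 change, with 11 rises left of the line; red triangles are HDAC3-KO libraries, grey circles control libraries and short lines group means. The 3 Ifitm genes shown lay above both controls in both HDAC3-KO libraries, and all Gbp genes shown lay below.

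The promoters of the genes of the interferon list in both directions were read for the core of the interferon-stimulated response element, AAANNGAAA on either strand, in the 250 bases before and 50 bases after the RefSeq start of GRCm38.p6. Of 10164 tested genes with a promoter in the table, 8.03% held it. Of 24 list members with a promoter, 18 held it, 4 of 5 that rose and 11 of 14 that fell, so that its presence did not separate the directions. The 150 bases before the start are shown for 2 rises and 1 fall, chosen after their values were seen, with the match in capitals and positions counted back from the start.
Oas3 (rise; chr5:120777660-120777809, minus strand, match at -74): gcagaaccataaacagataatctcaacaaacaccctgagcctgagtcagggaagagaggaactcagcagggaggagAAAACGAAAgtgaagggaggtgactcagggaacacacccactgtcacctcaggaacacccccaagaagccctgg
Ifitm2 (rise; chr7:140955962-140956111, minus strand, match at -45): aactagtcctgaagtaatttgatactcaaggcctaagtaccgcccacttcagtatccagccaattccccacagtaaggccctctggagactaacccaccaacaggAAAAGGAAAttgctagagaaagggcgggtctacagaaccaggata
Ifi44 (fall; chr3:151749911-151750060, minus strand, match at -55, as its reverse complement): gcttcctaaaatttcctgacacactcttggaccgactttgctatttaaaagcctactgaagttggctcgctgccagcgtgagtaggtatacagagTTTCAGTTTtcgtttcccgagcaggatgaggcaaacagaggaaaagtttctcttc
A match to these letters is a description and not a shown binding site.

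Antigen presentation and pathogen sensing changed in single members more than as groups. Of 14 MHC class II pathway genes tested, 4 rose and 2 fell, with 8 rises without HDAC3-KO library 1. H2-Ob, a subunit of the H2-O protein that restrains peptide loading, was at 33.8 and 42.7 FPKM in HDAC3-KO and 6.75 and 5.56 FPKM in control libraries (log2 change 2.75 ± 0.16), and H2-DMb2 at 68.4 and 89.5 FPKM in HDAC3-KO and 22.9 and 25.3 FPKM in control libraries (1.85 ± 0.16). Cd74, H2-Aa, H2-Ab1 and H2-Eb1, the abundant genes of the pathway, were not called. Of 22 MHC class I genes 8 rose and 6 fell, with a median of 0.07 that was below 0 under 3 alternatives, among them library size only. The transactivator Nlrc5 rose by 0.79 on the log2 scale. Immunoproteasome genes differed in direction: Psmb10 and Psme2 fell by 0.80 and 0.69, Psmb9 rose and Psmb8 was not called. Of 23 Toll-like receptor and adaptor genes 7 rose and 7 fell, with 1 rise and 2 falls without control library 1, 2 rises and 2 falls without control library 2, and 11 falls without HDAC3-KO library 1. Tlr1, a partner of TLR2 for bacterial lipopeptides, was at 2.35 and 3.63 FPKM in HDAC3-KO and 0.16 and 0.34 FPKM in control libraries (3.51 ± 0.35). Tlr7 fell to 53.1 and 40.9 FPKM in HDAC3-KO libraries, against 71.5 and 79.7 FPKM in control libraries (-0.56), and Tlr9, at 54.0 and 42.3 FPKM in HDAC3-KO and 58.4 and 53.4 FPKM in control libraries, was not called. The costimulatory Cd80 and the maturation gene Cd83 rose by 4.55 and 2.38 on the log2 scale and stayed under 5 FPKM in all libraries. Cd200, a ligand that restrains myeloid cells, was at 7.48 and 5.03 FPKM in HDAC3-KO and 33.3 and 35.5 FPKM in control libraries (-2.33 ± 0.16).

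Of 22 immediate early genes tested, 14 rose and 3 fell, with a median log2 change of 0.75. Egr1, a zinc finger factor induced within minutes of receptor signalling, was at 29.9 and 41.4 FPKM in HDAC3-KO and 10.4 and 10.9 FPKM in control libraries (1.88 ± 0.17), and Ier2 at 119 and 162 FPKM in HDAC3-KO and 48.5 and 40.9 FPKM in control libraries (1.79 ± 0.18). Egr3 rose by 3.29 on the log2 scale from a low level, with 2.30 and 3.34 FPKM in HDAC3-KO and 0.37 and 0.27 FPKM in control libraries. HDAC3-KO library 2 was above library 1 in all 3 genes.

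Among transcription factors, Myc was at 14.55 and 14.96 FPKM in HDAC3-KO and 2.63 and 2.90 FPKM in control libraries (log2 change 2.55 ± 0.12, adjusted p = 3.3e-05). Its relative Mycl, which dendritic cells use, was at 56.5 and 48.2 FPKM in HDAC3-KO and 107.2 FPKM in both control libraries (-0.90 ± 0.09), and Mxd4, an antagonist of MYC, at 18.3 and 16.0 FPKM in HDAC3-KO and 49.1 and 47.8 FPKM in control libraries (-1.36 ± 0.10). Ets1 fell by 1.28 on the log2 scale. Of 23 E protein, ID protein and lymphoid factor genes 8 rose (5 without control library 1) and 6 fell. Id2 was at 59.5 and 102.7 FPKM in HDAC3-KO and 7.54 and 7.77 FPKM in control libraries (3.55 ± 0.28), Notch2 at 53.01 and 53.96 FPKM in HDAC3-KO and 24.1 and 21.9 FPKM in control libraries (1.35 ± 0.10), and Zbtb46, the cDC factor, at 8.87 and 11.97 FPKM in HDAC3-KO and 1.46 and 1.23 FPKM in control libraries (3.43 ± 0.23). Of the 28 pDC identity genes 2 rose and 17 fell, with 11 falls without control library 2, and of 17 cDC1 genes tested 9 rose and 4 fell (1 fall without control library 1 or 2), whereas cDC2 genes divided evenly, with 5 rises and 5 falls among 12. Over 47 ETS, IRF, C/EBP, KLF and related factors, 12 rose and 13 fell, near the shares of all genes, with 5 falls without control library 1 and 7 without control library 2.

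pDCs share part of a lymphoid program with B cell precursors. Of 13 lymphoid recombination and immunoglobulin genes tested, 1 rose and 6 fell, with a median log2 change of -0.49. Rag1, a recombinase subunit, was at 0.07 and 0.02 FPKM in HDAC3-KO and 0.50 and 0.60 FPKM in control libraries (-3.36 ± 0.44). Blnk, an adaptor of the B cell receptor, was at 83.2 and 74.2 FPKM in HDAC3-KO and 163 and 153 FPKM in control libraries (-0.88 ± 0.09). The rise was Lax1. Of 8 plasma cell markers tested 1, Derl3, rose and 5 fell (3 falls without control library 2), and in the B cell list Blk was the rise. Among the falls of these lists, Fcrla was at 65.8 and 62.7 FPKM in HDAC3-KO and 226.9 and 242.8 FPKM in control libraries (-1.73 ± 0.09), and Mzb1, a chaperone of the endoplasmic reticulum in secretory cells, at 15.92 and 11.01 FPKM in HDAC3-KO and 65.0 and 71.7 FPKM in control libraries (-2.21 ± 0.15). Dntt, the template-free polymerase of recombination, at 111 and 99.6 FPKM in HDAC3-KO and 113 and 125 FPKM in control libraries, was not called.

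Neuronal and axon guidance genes, some of which pDCs share with neurons, fell more often than they rose. Of 24 tested, 5 rose and 12 fell, with a median log2 change of -0.45 (8 rises without HDAC3-KO library 1). Nrxn2, a synaptic adhesion gene, was at 2.24 and 1.10 FPKM in HDAC3-KO and 23.8 and 23.4 FPKM in control libraries (-3.69 ± 0.25), and Epha2, an ephrin receptor, at 52.8 and 41.6 FPKM in HDAC3-KO and 162.7 and 164.3 FPKM in control libraries (-1.65 ± 0.11). Sema4a, a semaphorin of dendritic cells that acts on T cells, was at 45.1 and 56.5 FPKM in HDAC3-KO and 5.96 and 4.63 FPKM in control libraries (3.38 ± 0.18).

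Of 19 glycolysis genes tested, 3 rose and 4 fell, with a median log2 change of 0.14 (9 rises without HDAC3-KO library 1, 1 rise and 1 fall without control library 1, and 1 fall without control library 2). Of 20 oxidative phosphorylation genes tested, none rose and 8 fell (3 without control library 1 or 2), with a median log2 change of -0.16. Cox7a2 was at 38.2 and 41.0 FPKM in HDAC3-KO and 70.6 and 68.4 FPKM in control libraries (-0.67 ± 0.10), and Ndufa4 at 74.5 and 69.8 FPKM in HDAC3-KO and 114 and 118 FPKM in control libraries (-0.55 ± 0.09). Over all genes of the Nduf symbol, which encode subunits of complex I, none of 36 rose and 27 fell, with a median of -0.44 and sums of 1547 and 1611 FPKM in HDAC3-KO and 2238 and 2271 FPKM in control libraries. This family was grouped after the values had been seen, and its falls numbered 21 with a correction for GC content and length and 11 in the lowest of the alternatives. Of 49 Mrpl genes, which encode mitochondrial ribosomal proteins, 1 rose and 12 fell (4 to 22 falls over the alternatives), a share of falls near that of all genes, and of 29 Mrps genes 2 rose and 11 fell (2 to 21 falls).

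Of 22 cytosolic ribosomal protein genes in the list 12 rose and none fell, with a median of 0.36. Rpsa was at 1278 and 1614 FPKM in HDAC3-KO and 801.4 and 855.2 FPKM in control libraries (0.94 ± 0.14), and Rplp0 at 1822 and 2138 FPKM in HDAC3-KO and 1333 and 1354 FPKM in control libraries (0.70 ± 0.12). HDAC3-KO library 2 was above library 1 in both, and over the alternatives the number of rises in this list ran between 1, without control library 1 or 2, and 22, without HDAC3-KO library 1. Ribosomal protein genes have many pseudogene copies, and single members are uncertain.

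Proteasome genes fell in 7 of 14 tested and rose in none, with a median of -0.26. Psmb5, a catalytic subunit, was at 35.4 and 36.2 FPKM in HDAC3-KO and 56.5 and 61.6 FPKM in control libraries (-0.59 ± 0.09). Genes of the secretory pathway and the unfolded protein response fell in 10 of 23 and rose in 1. Dnajc3, a chaperone of the endoplasmic reticulum, was at 27.8 and 23.4 FPKM in HDAC3-KO and 42.9 and 48.1 FPKM in control libraries (-0.70 ± 0.10). Lysosomal enzymes fell in 13 of 24 and rose in 3. Ctsl, a cathepsin, was at 321 and 221 FPKM in HDAC3-KO and 577 and 631 FPKM in control libraries (-1.02 ± 0.16), and Ctsh fell by 0.82 on the log2 scale. Lgmn, another lysosomal protease, rose by 1.03 and Psap by 0.70. All these lists lost calls when a control library was left out: without control library 1 the falls numbered 3 for proteasome, 4 for secretory and 2 for lysosomal genes, and without control library 2 they numbered 2, 2 and 4. Their medians stayed below 0 under all alternatives tried.

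Lipid genes divided by pathway. Of 12 targets of the liver X receptor (LXR) and cholesterol efflux genes tested, 6 rose and none fell, with a median log2 change of 0.54. LXR is a sterol-activated nuclear receptor that can recruit NCoR and HDAC3. Abca1, the cholesterol exporter, was at 6.37 and 5.95 FPKM in HDAC3-KO and 0.36 and 0.31 FPKM in control libraries (4.33 ± 0.12, adjusted p = 1.5e-05), Abcg1 at 22.4 and 25.3 FPKM in HDAC3-KO and 7.2 and 7.5 FPKM in control libraries (1.84 ± 0.11), and Smpdl3a at 60.3 and 73.3 FPKM in HDAC3-KO and 13.4 and 14.4 FPKM in control libraries (2.41 ± 0.13). Of 22 sterol synthesis genes 1 rose and 7 fell (4 falls without control library 2), by smaller amounts, such as Dhcr7 (-0.56 ± 0.09). Fatty acid genes went both ways: Elovl6, an elongase, was at 3.34 and 2.44 FPKM in HDAC3-KO and 12.4 and 12.5 FPKM in control libraries (-1.98 ± 0.13), and Cpt1a, which admits fatty acids to mitochondria, at 29.3 FPKM in both HDAC3-KO libraries and 16.5 and 17.5 FPKM in control libraries (0.92 ± 0.09).

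Of 20 nucleotide and one-carbon synthesis genes tested, 9 rose and 1 fell, with 4 and 3 rises without control library 1 and 2. Paics, a purine synthesis enzyme, was at 101.8 and 107.7 FPKM in HDAC3-KO and 58.4 and 60.1 FPKM in control libraries (log2 change 0.95 ± 0.09). The 1 fall was Phgdh, the first enzyme of serine synthesis, at 26.4 and 24.7 FPKM in HDAC3-KO and 65.9 and 61.9 FPKM in control libraries (-1.19 ± 0.09). Of 14 genes of the ATF4 response to amino acid lack, 8 rose and 2 fell (5 rises without control library 1 or 2). Ddit4, an inhibitor of mTORC1, was at 92.8 and 182.7 FPKM in HDAC3-KO and 24.1 and 22.2 FPKM in control libraries (2.72 ± 0.31), with HDAC3-KO library 2 far above library 1 and both above both controls. The metallothioneins Mt1 and Mt2, which bind zinc and copper, rose by 2.03 and 3.67 on the log2 scale.

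Cell cycle genes formed the most uniform lists. All 25 mitosis genes tested rose, with a median log2 change of 1.499, and so did 23 of 25 DNA replication genes, with a median of 1.06. Top2a, the topoisomerase of dividing cells, was at 157.5 and 143.8 FPKM in HDAC3-KO and 43.6 and 41.9 FPKM in control libraries (1.95 ± 0.09), and Aurka, a spindle kinase, at 46.7 and 48.5 FPKM in HDAC3-KO and 11.6 and 10.8 FPKM in control libraries (2.23 ± 0.10). Of 20 DNA damage response genes 18 rose and 1 fell, for example Brca1 and Clspn, by 1.84 and 1.68 on the log2 scale; without control library 1 the rises of this list numbered 11. Of 12 CDK inhibitor and G1 cyclin genes 7 rose and none fell (2 falls without HDAC3-KO library 1). Cdkn1a, which encodes the inhibitor p21, was at 30.4 and 39.6 FPKM in HDAC3-KO and 3.62 and 3.84 FPKM in control libraries (3.37 ± 0.17). Ccnd2, a G1 cyclin, was at 22.4 and 23.9 FPKM in HDAC3-KO and 5.36 and 5.15 FPKM in control libraries (2.27 ± 0.10). Of 18 p53 targets, Cdkn1a included, 5 rose and 5 fell (1 fall without control library 1 or 2, and 3 rises without control library 2). Of 20 apoptosis genes 7 rose and 3 fell (5 falls without HDAC3-KO library 2). Pmaip1, which encodes the killer protein NOXA, and Mcl1, its survival partner, both rose, by 1.93 and 1.45.

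The promoters of the mitosis genes held more matches to 2 short sequences than all tested genes. TTTGAA, the cell cycle homology region, was found on either strand in 16 of 22 mitosis promoters, against 12.5% of all 10164, and CCAAT, the NF-Y box, in 18 of 22, against 39.5%. Among all genes that rose at least 2-fold, 21.1% held TTTGAA. The 150 bases before the start are shown for Top2a and Kif22, both chosen after their values were seen. The reverse complement of TTTGAA is in capitals. Kif22 encodes a spindle motor and is part of a run of neighbouring rises.
Top2a (rise; chr11:99024190-99024339, minus strand, match at -23): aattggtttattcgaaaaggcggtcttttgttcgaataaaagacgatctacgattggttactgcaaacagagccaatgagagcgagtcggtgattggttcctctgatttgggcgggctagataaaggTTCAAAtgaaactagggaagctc
Kif22 (rise; chr7:127042421-127042570, minus strand, match at -17): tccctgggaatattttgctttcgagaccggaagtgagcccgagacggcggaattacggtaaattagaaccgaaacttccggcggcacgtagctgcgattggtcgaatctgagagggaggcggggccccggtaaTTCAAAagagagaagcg
Only these 150 bases were marked, and the position of the match in 2 chosen genes is a description.

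The octamer GAGGAAGT, which PU.1 and other ETS factors can bind, was in 3.34% of all tested promoters, in 4.93% of those of genes that rose and in 2.76% of those of genes that fell. A second ETS sequence that was read, GGAAGTG, was in 15.17% of all tested promoters and was not more frequent among the rises. It was in 14.96% of the promoters of genes that rose and in 13.42% of those of genes that fell. Among genes that changed at least 2-fold, 11.74% of the rises and 7.72% of the falls held GGAAGTG. Among the 10 largest rises none of the 9 with a promoter held GAGGAAGT. It was in 4 of 19 metabolite receptor promoters, 3 of them of genes that rose, in 5 of 16 neutrophil granule promoters, 1 of them of a gene that rose, in 3 of 21 pDC identity promoters and in 0 of 13 cDC1 promoters. The promoters of 2 receptors that rose are shown, again chosen after their values were seen, with that of the pDC surface gene Ly6c2, which fell to 540 and 490 FPKM in HDAC3-KO libraries, against 1305 and 1313 FPKM in control libraries.
Tlr1 (rise; chr5:64933559-64933708, minus strand, match at -23): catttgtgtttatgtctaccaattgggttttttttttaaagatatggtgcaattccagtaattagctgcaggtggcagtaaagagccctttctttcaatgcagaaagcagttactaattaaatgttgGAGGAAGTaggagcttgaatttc
Gpr55 (rise; chr1:85961056-85961205, minus strand, match at -105, as its reverse complement): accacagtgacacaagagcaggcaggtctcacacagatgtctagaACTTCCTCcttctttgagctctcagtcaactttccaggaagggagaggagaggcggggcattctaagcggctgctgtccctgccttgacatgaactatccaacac
Ly6c2 (fall; chr15:75111972-75112121, minus strand, match at -108): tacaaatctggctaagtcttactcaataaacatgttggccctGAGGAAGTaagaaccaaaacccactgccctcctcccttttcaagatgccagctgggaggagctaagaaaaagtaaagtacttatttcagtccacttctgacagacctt
Tlr1 and Ly6c2 have 2 listed starts each, of which 1 was used.

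Of 24 actin, podosome and migration genes, 13 rose and 2 fell. Vim, an intermediate filament protein, was at 794 and 973 FPKM in HDAC3-KO and 318 and 288 FPKM in control libraries (log2 change 1.68 ± 0.14), and Myo1g, a membrane motor of leukocytes, at 126 and 151 FPKM in HDAC3-KO and 44.1 and 38.8 FPKM in control libraries (1.88 ± 0.14). Of 19 integrin and adhesion genes 6 rose and 4 fell (2 falls without control library 1), with a median of 0.10 that was below 0 under 4 alternatives, among them library size only. Itga4 was at 165.6 and 172.0 FPKM in HDAC3-KO and 48.8 and 50.5 FPKM in control libraries (1.90 ± 0.10), and its partners diverged: Itgb7 rose by 1.11 and Itgb1 fell by 1.02 on the log2 scale. Of 15 phagocyte oxidase and lysozyme genes 7 rose and none fell (2 rises without control library 1 or 2, and 4 without HDAC3-KO library 2), with Ncf4, Ncf1 and Cyba, subunits of the NADPH oxidase, at changes of 0.88, 0.77 and 0.54. Of 5 clade B serpins, intracellular protease inhibitors, 4 rose and none fell, with Serpinb6b at 23.5 and 22.97 FPKM in HDAC3-KO and 2.83 and 3.88 FPKM in control libraries (2.92 ± 0.15).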

How the data were processed

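RNA from sorted BM pDCs was sequenced by the study, and reads were aligned with Bowtie2 and quantified with RSEM on mm10, as the submitters' processing notes name these tools. The deposited expected counts are RSEM estimates per gene, which were rounded to whole numbers here, and the deposited FPKM values, as made by the authors without a scaling between libraries, gave the levels. The authors' fold changes and p-values were not used. Libraries were grouped by their labels. Of 16896 genes, 12716 passed edgeR's filterByExpr and were tested with edgeR 4.0.16 (R 4.3.3; TMM factors, quasi-likelihood, genotype only, the 4 pDC libraries, two-sided), and every adjusted p comes from this fit over all tested genes. SE is the log2 change divided by the root of the F statistic. Calls used an adjusted p under 0.05. The alternatives were DESeq2 1.42.0, limma 3.58.1 on log2(FPKM + 0.5) and log2(FPKM + 0.1), other scalings and filters, a replicate block, each library left out, and 3 alternatives chosen after seeing the data. Promoters came from RefSeq (GRCm38.p6), matched by gene ID. Members and lists were chosen with earlier results of these data known.

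The named genes were the targeted gene and its class, the markers, and the 10 largest rises and falls at a mean of at least 5 FPKM with groups apart. The rule also took the 10 largest gains and losses of FPKM, genes at 0 in a group and the genes of neighbouring runs. From each list it took up to 4 tested members with the smallest p, called or not. Genes named as defining markers, to complete a family or a list's calls, or as uncalled counterparts (such as Irf7, Tlr7, Tlr9, Ccr9, Cxcr3, Dntt and the Cd74 group) lie outside this rule and were chosen after their values were seen. Values of a few genes are not reported here.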

Additional observations from a re-analysis of the deposited data

How the results depend on the processing

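Under 16 alternatives, 13 planned and 3 added after seeing the data, no called gene took the opposite sign. With 1 library left out the rises ranged between 1440 and 3446 and the falls between 1310 and 3559, the lowest without control library 2 (1440 and 1310) and control library 1 (1531 and 1395), against 2753 and 2858 with all libraries. Library size alone gave 2080 rises and 3847 falls, limma on log2(FPKM + 0.5) 1881 and 3696, and on log2(FPKM + 0.1) 1865 and 3655, so that rises made up 35.1%, 33.7% and 33.8% of calls instead of 49.1%. DESeq2 gave 2438 and 2171, and no filter on low counts 2340 and 2553. With the replicate number as a block there were 2476 rises and 2585 falls, and with crossed pairs, added after seeing the data, 2796 and 2898; deviations of same-numbered libraries correlated at -0.20, and no source pairs them. Of 294 named genes that were called, 230 were called in every alternative and 64 lost the call in at least 1, mostly without control library 1 (53) or control library 2 (57). With 1 library in a group, that library was assumed to vary like the others. The cause was not tested. With 2 libraries a group, small changes rest on few degrees of freedom, and counts near 0 limit genes under 1 FPKM.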

Other observations

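Other gene families were grouped by symbol after their values had been seen. Of 9 Mcm genes, subunits of the replicative helicase, 8 rose and none fell (median log2 change 1.01), and of 20 Cenp genes, centromere proteins, 15 rose and none fell (median 1.02). Of 12 tubulin genes 8 rose and 3 fell, with sums of 1681 and 1737 FPKM in HDAC3-KO and 1065 and 1031 FPKM in control libraries. Of 9 Ly6 genes none rose and 4 fell, with sums of 2706 and 2614 FPKM in HDAC3-KO and 5064 and 5200 FPKM in control libraries. Of 13 cathepsin genes 1 rose and 8 fell (3 to 9 falls over the alternatives), and of 39 Slc25 mitochondrial carriers 5 rose and 14 fell (1 to 6 rises and 6 to 17 falls). The zinc finger (Zfp) genes, 46 rises and 41 falls among 345, had a median of 0.02, whose sign depended on the scaling.

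Neighbouring tested genes were called in the same direction in a few long runs. The longest was 9 consecutive rises on chromosome 7 from 127015051 to 127208468 (Pagr1a, Prrt2, Maz, Kif22, AI467606, Qprt, Spn, Cd2bp2 and Tbc1d10b). A run of 7 rises on chromosome 11 from 98907709 to 99155077 held Cdc6, Rara, Gm46294, Top2a, Igfbp4, Tns4 and Ccr7, where Igfbp4 was at 46.6 and 41.6 FPKM in HDAC3-KO and 6.16 and 6.27 FPKM in control libraries. The longest run of falls was 7 genes on chromosome 4 from 3938840 to 8607702. Neighbouring genes can overlap, and reads of overlapping genes may be shared.

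Of the X-linked genes tested, 13.7% rose and 31.2% fell among 401, and of those on chromosome 7, 27.2% rose and 16.6% fell among 989. Other chromosomes had similar shares: 18.6% rose and 30.5% fell among 580 on chromosome 3, and 24.8% rose and 15.6% fell among 681 on chromosome 17. Across 12554 genes the log2 change correlated with transcript GC content at a Spearman coefficient of 0.12, and with a value of -0.32 for the difference between HDAC3-KO libraries 1 and 2 and 0.31 for that between control libraries 1 and 2; genes share libraries and base composition, and these are descriptions. Of the 1127 rises of at least 2-fold, 731 lay further from the controls in HDAC3-KO library 2 than in library 1, and of the 709 falls, 561 did.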
